A study of Mus musculus with 6 samples.

Results

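The myostatin, activin and TGF-beta system was examined through 10 genes chosen by their roles: the ligands Mstn, Tgfb1 and Tgfb2, the latency protein Ltbp4, the antagonists Fst and Fstl3, the type II receptors Acvr2b and Tgfbr2, and the type I receptors Acvr1b and Tgfbr1. The rule that chose them names roles and no measured value, but earlier results of these data were known when it was written. All 10 were among the 55401 genes of the count table, and all 10 were among the 17222 genes with enough reads to be tested. The RNA came from whole tibialis anterior (TA), a fast hindlimb muscle, of adult male mice. Every muscle carried the same deletion of the clock gene Bmal1 (iMSBmal1-/-), made by tamoxifen at 12 to 16 weeks of age (2 mg per day for 5 days) through a Cre recombinase that the human skeletal actin promoter drives in muscle fibres, so the other cells of the muscle kept the gene. An adeno-associated virus (AAV) was put into the TA 4 weeks later, and the muscle was collected after a further 4 weeks. The AAV-GFP group (n = 3) received a vector for green fluorescent protein. The AAV-RBM20 group (n = 3) received HA-tagged mouse Rbm20, a splicing regulator of titin, under the CMV promoter and at a higher vector dose, so transgene and dose cannot be told apart. A Bmal1-intact or uninjected muscle was not analysed here, and the labels do not say that the 3 samples of a group are separate animals, so p-values measure the spread between these samples.

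Myostatin (Mstn) is made by muscle fibres and restrains muscle growth. Like the activins, it binds a type II receptor (ACVR2B or ACVR2A), which then activates a type I receptor (ACVR1B or TGFBR1), and the type I receptor phosphorylates SMAD2 and SMAD3. TGF-beta ligands use TGFBR2 with TGFBR1, act on the same SMADs and drive matrix production by fibroblasts. Follistatin (Fst) and follistatin-like 3 (Fstl3) bind myostatin and activins outside the cell and block them, while LTBP4 holds TGF-beta in a latent complex in the matrix.

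The proximal promoters of Mstn and Tgfb1 are shown because these were the 2 members whose levels did not overlap between the groups. BMAL1, deleted from the fibres of all 6 muscles, binds E-boxes, for which the letters CACGTG are the canonical form and CANNTG the general one (each reads the same on both strands, and every CACGTG is also a CANNTG). The runs below are the 250 bases before the RefSeq start site on GRCm38.p6, with CANNTG in capitals, for Mstn at chr1:53061390-53061639 (plus strand) and Tgfb1 at chr7:25686752-25687001 (plus strand).
Mstn: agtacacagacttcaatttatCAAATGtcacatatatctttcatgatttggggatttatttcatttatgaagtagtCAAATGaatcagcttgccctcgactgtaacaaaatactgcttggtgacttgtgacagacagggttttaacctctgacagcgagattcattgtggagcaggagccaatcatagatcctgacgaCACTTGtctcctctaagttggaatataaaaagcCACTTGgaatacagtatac
Tgfb1: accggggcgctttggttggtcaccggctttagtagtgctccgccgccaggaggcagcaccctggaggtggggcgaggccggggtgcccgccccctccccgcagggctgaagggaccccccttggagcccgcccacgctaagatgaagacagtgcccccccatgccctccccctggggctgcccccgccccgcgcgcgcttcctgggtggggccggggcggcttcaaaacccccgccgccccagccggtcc

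The Mstn run held 4 general E-boxes, which began at positions -229, -174, -52 and -19 from the start site, and no CACGTG. The Tgfb1 run held no E-box of either form. Their base composition also differed, with 38.4% G and C in Mstn and 75.2% in Tgfb1. Among the members with a promoter in the table, CACGTG was present in Tgfb2, 51 bases before the start, and in Acvr1b, 54 bases before it. The windows of 60 bases around these, with CACGTG in capitals, lie at chr1:186706008-186706067 (minus strand) for Tgfb2 and chr15:101173991-101174050 (plus strand) for Acvr1b.
Tgfb2: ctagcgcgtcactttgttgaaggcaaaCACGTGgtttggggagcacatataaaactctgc
Acvr1b: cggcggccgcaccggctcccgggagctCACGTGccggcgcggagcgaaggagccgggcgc

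Over all 32851 RefSeq promoter windows (250 bases before to 50 after the start), 7.15% held CACGTG and 72.3% held CANNTG. These matches describe letters only, since binding was not measured.

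The 6 libraries held 41400132 to 54226618 counts assigned to genes. Rbm20, which includes the vector's transcripts, stood at 164 to 170 CPM (counts scaled to library size by edgeR's TMM factors) with AAV-GFP and 406 to 545 CPM with AAV-RBM20. The libraries numbered 3 stood apart in both groups: Ttn took 4.48% (AAV-GFP) and 9.05% (AAV-RBM20) of their counts, against 16.9% to 17.8% in the other 4 libraries, and mitochondrial genes took 12.5% and 11.4% against 6.41% to 7.66%. Values without them are given beside some of the results that they move, not all. In a whole muscle, fewer cells of a type and less RNA per cell cannot be told apart. Defining fibre genes summed to 156944 to 316130 CPM with AAV-GFP and 151484 to 300476 CPM with AAV-RBM20, and were the most abundant of the marker lists.

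No member passed the test between AAV-RBM20 and AAV-GFP. Mstn was lower in every AAV-RBM20 library than in any AAV-GFP library, and Tgfb1 was higher in every one, while the values of the other 8 members overlapped. Each gene was tested by quasi-likelihood in edgeR, p-values were adjusted by Benjamini-Hochberg over all 17222 genes, and 0% of all genes passed it at an adjusted p of 0.05. At an unadjusted p under 0.05 there were 2 members, 1 lower and 1 higher, or 2 of 10 against 7.9% of all genes. DESeq2 called 72 genes and no member. Group ranges failed to overlap for 2 of 10 members and for 16.8% of all genes. Of the 10 log2 fold changes 6 were positive and 4 negative, with a median of 0.07 against 0.009 over all genes tested.

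**Figure D1:**
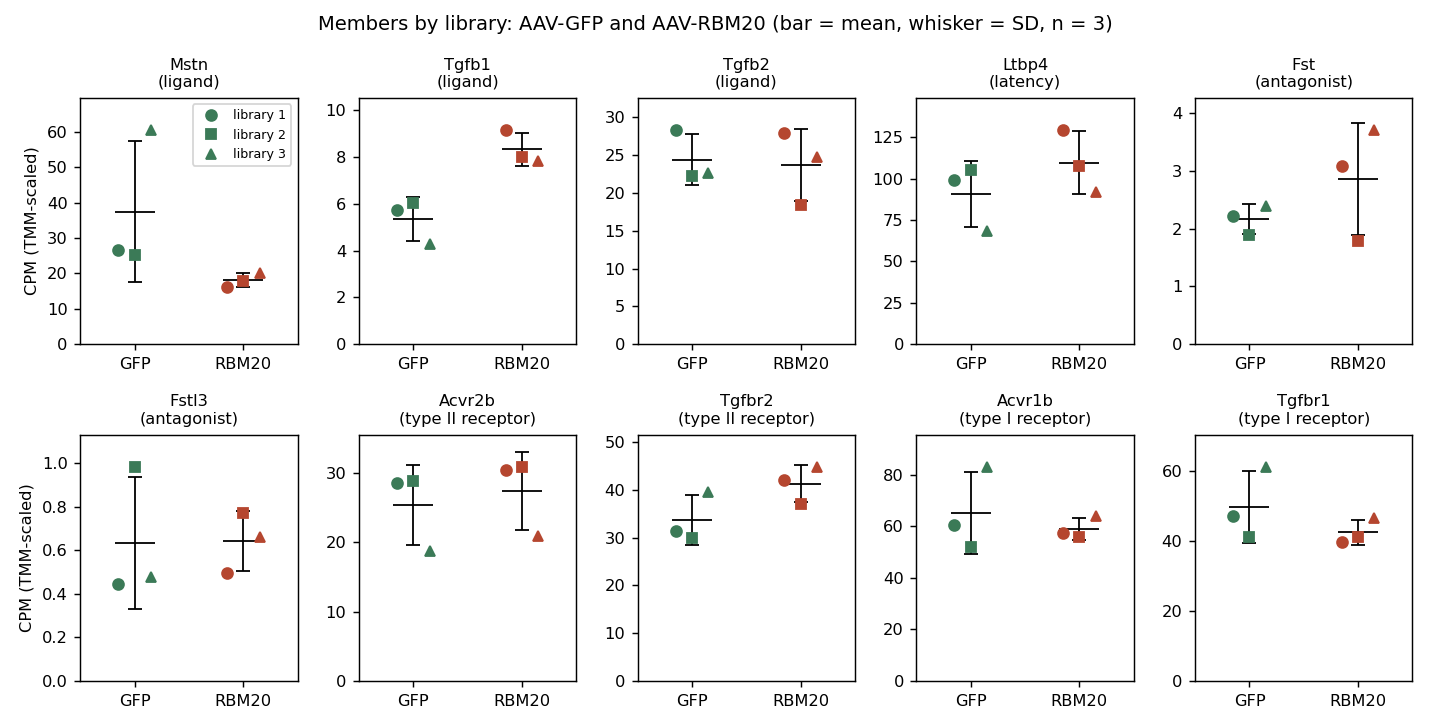
Each panel plots 1 member's TMM-scaled CPM (vertical axis, from 0) in the 3 AAV-GFP and 3 AAV-RBM20 libraries, with marker shape for library number, a bar for the mean and a whisker for the SD. Mstn and Tgfb1 are the panels without overlap, and the AAV-GFP library numbered 3, at 60.5 CPM, sits far above the other Mstn values.

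Among the ligands, Mstn (chr1:53061640-53068079, plus strand, 3 exons, with no other annotated gene overlapping it) stood at 26.7, 25.2 and 60.5 CPM in AAV-GFP libraries 1 to 3 and at 16.2, 17.9 and 20.2 CPM in AAV-RBM20 libraries 1 to 3. These rest on 1050 to 3185 counts per AAV-GFP library and 718 to 980 per AAV-RBM20 library. All AAV-RBM20 values lay below all AAV-GFP values, and the AAV-GFP library numbered 3 was far higher than the other 5. The mean level was 37.5 ± 20.0 CPM (SD, n = 3) against 18.1 ± 2.01 CPM (SD, n = 3), 2.07-fold lower in the second group. On the log2 scale Mstn differed by -1.05 ± 0.33 (SE), with an unadjusted p of 0.0126 and an adjusted p of 0.618 (edgeR), and the exact two-sided permutation test gave p = 0.1, the smallest that 3 against 3 allows.

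The size of the Mstn difference depended on the AAV-GFP library numbered 3. Without it the log2 fold change was -0.52, with an adjusted p of 0.186 (edgeR). Without both libraries numbered 3 it was -0.60 ± 0.09 (SE), with an adjusted p of 0.00574 in edgeR, in a fit where 4% of all genes passed. With the replicate number as a block, a fit that compares same-numbered libraries, Mstn was at -0.94 ± 0.20 (SE) with an adjusted p of 0.123 in edgeR. DESeq2 with the same block gave -0.95 with an adjusted p of 0.000194, and 3.28% of all genes passed there. Over 19 alternatives the Mstn log2 fold change stayed negative, from -1.28 to -0.52, while its adjusted p ranged from 0.000194 to 0.999. All 3 same-numbered pairs had less Mstn with AAV-RBM20, as any pairing must when the groups do not overlap, so this adds no support.

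Tgfb1 (chr7:25687002-25705077, plus strand, 8 exons), the TGF-beta ligand that many cell types including macrophages release, ran the other way. It stood at 5.73, 6.04 and 4.29 CPM in the AAV-GFP libraries and at 9.15, 7.99 and 7.82 CPM in the AAV-RBM20 libraries, from 226 to 499 counts per library. No AAV-RBM20 value came down to the AAV-GFP range. The means were 5.35 ± 0.931 CPM (SD, n = 3) and 8.32 ± 0.721 CPM (SD, n = 3), 1.55-fold higher in the second group. On the log2 scale Tgfb1 differed by 0.64 ± 0.18 (SE), with an unadjusted p of 0.00686 and an adjusted p of 0.618 (edgeR), and the exact two-sided permutation p was again 0.1. Its log2 fold change varied less over the alternatives than that of Mstn, from 0.50 to 0.74. The adjusted p of Tgfb1 over these 19 alternatives ranged from 0.0443 to 0.999. The replicate block left it at 0.65 ± 0.14 (SE) with an adjusted p of 0.109 (edgeR), and without both libraries numbered 3 it was 0.55 ± 0.13 (SE) with an adjusted p of 0.0443 (edgeR).

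Most macrophage genes had a higher mean with AAV-RBM20, as Tgfb1 did, but their sums overlapped between the groups. Of 12 macrophage markers 11 had a higher mean CPM with AAV-RBM20. Their summed level was 36.8 to 130 CPM with AAV-GFP and 81.0 to 190 CPM with AAV-RBM20, with none of the 12 at 0 in every library. The highest macrophage sum in each group was in the library numbered 3, where Tgfb1 was lowest in that group. The part of these cells in the Tgfb1 difference was not tested. Markers of regenerating or denervated fibres summed to 19.9 to 26.8 CPM with AAV-GFP and 35.4 to 57.3 CPM with AAV-RBM20, without overlap. All 8 genes had a higher mean CPM with AAV-RBM20, though Chrng was under 1 CPM in every library. The part of these fibres in the Mstn and Tgfb1 differences was not tested either. Slow-fibre markers were at 44.4 to 85.9 CPM and 80.0 to 133 CPM, which overlap, with 6 of 7 genes at a higher mean CPM. The upward lean was not particular to macrophages. Means were also higher with AAV-RBM20 for 6 of 6 satellite-cell, 6 of 7 endothelial and 5 of 6 tendon markers, each list with overlapping sums. They were lower for 6 of 8 muscle-fibre and 5 of 5 adipocyte markers.

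Tgfb2 (chr1:186622792-186705989, minus strand), the third ligand, did not separate the groups. It stood at 28.3, 22.3 and 22.6 CPM with AAV-GFP and at 27.9, 18.5 and 24.8 CPM with AAV-RBM20. The libraries numbered 2 and the AAV-GFP library numbered 3 were the low ones, and the log2 fold change was -0.04 ± 0.18 (SE). Its exons share 124 bases with genes on the opposite strand, and the strand setting of the counting is not given in the sources used here.

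Ltbp4 (chr7:27305136-27337692, minus strand, 35 exons), which keeps TGF-beta latent in the matrix, varied with library number as well as with group. It stood at 99.0, 105 and 68.2 CPM with AAV-GFP and at 129, 108 and 91.7 CPM with AAV-RBM20. In both groups the library numbered 3 was the lowest, and the ranges overlapped, although each AAV-RBM20 library exceeded the AAV-GFP library of the same number. Ltbp4 was at 0.27 ± 0.20 (log2 fold change ± SE; unadjusted p of 0.217 in edgeR), and with the replicate block at 0.28 ± 0.11 (SE), with an unadjusted p of 0.0298 and an adjusted p of 0.227 (edgeR).

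Both antagonists had few counts. Fst (chr13:114452290-114458951, minus strand) stood at 2.21, 1.89 and 2.39 CPM with AAV-GFP and at 3.08, 1.79 and 3.71 CPM with AAV-RBM20, from 72 to 180 counts per library. AAV-RBM20 libraries 1 and 3 were above all AAV-GFP libraries and AAV-RBM20 library 2 was below them, giving a log2 fold change of 0.40 ± 0.29 (SE). Fst shares 115 exon bases with an antisense gene. Fstl3 (chr10:79777272-79782630, plus strand) stood at 0.443, 0.982 and 0.475 CPM with AAV-GFP and at 0.495, 0.771 and 0.659 CPM with AAV-RBM20. With only 18 to 41 counts per library its log2 fold change of 0.02 ± 0.42 had the largest SE of the members. Of its 2445 exon bases 1157 are shared with Prss57 on the opposite strand, so its counts are uncertain.

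The ratio of an antagonist transcript to Mstn can be read within a library, where scaling cancels. It was computed for Fst and Fstl3 only. Wfikkn2, which encodes another secreted inhibitor of myostatin, was more abundant than these and was lower with AAV-RBM20. Its mean was 4.64 CPM per kilobase with AAV-GFP and 3.05 with AAV-RBM20. The ratios below therefore do not give the whole balance of antagonists to ligand. Per kilobase of exon, Fst counts were 0.0488, 0.0443 and 0.0233 of Mstn counts in AAV-GFP libraries 1 to 3 and 0.112, 0.0591 and 0.108 in AAV-RBM20 libraries 1 to 3. Mstn transcripts thus exceeded Fst transcripts everywhere, and the groups did not overlap. The log2 ratio was higher with AAV-RBM20 by 1.28 ± 0.45 (SE, n = 3 and 3), with an exact two-sided permutation p of 0.1. Leaving out single libraries gave 0.94 to 1.58, the lowest without the AAV-GFP library numbered 3. The ratio holds the Mstn values already given, so it is no independent result. For Fstl3 the ratio to Mstn ran from 0.00868 to 0.0432 with AAV-GFP and from 0.0338 to 0.0478 with AAV-RBM20, which overlap. That log2 ratio differed by 1.03 ± 0.69 (SE, n = 3 and 3), with an exact two-sided permutation p of 0.3, and by 0.46 without the AAV-GFP library numbered 3.

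**Figure D2:**
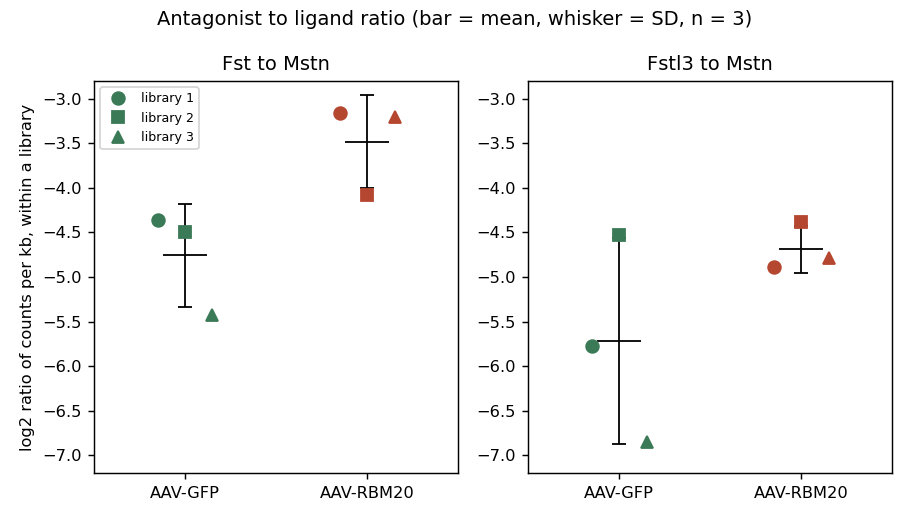
The log2 ratio of counts per kilobase of Fst (left) and Fstl3 (right) to Mstn within each library (vertical axis), with marker shape for library number, a bar for the mean and a whisker for the SD. The 3 AAV-RBM20 values of the Fst ratio lie above the 3 AAV-GFP values, while those of the Fstl3 ratio overlap.

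The type II receptors differed from each other in how they varied. Acvr2b (chr9:119402118-119434995, plus strand), the main receptor for myostatin, stood at 28.6, 28.8 and 18.8 CPM with AAV-GFP and at 30.5, 30.9 and 21.0 CPM with AAV-RBM20. The library numbered 3 was the lowest of each group, the ranges overlapped, and the log2 fold change was 0.11 ± 0.22 (SE). Tgfbr2 (chr9:116084293-116175360, minus strand), the receptor that binds TGF-beta itself, stood at 31.5, 30.0 and 39.6 CPM with AAV-GFP and at 42.0, 37.1 and 44.8 CPM with AAV-RBM20. Here the library numbered 3 was the highest of each group, and AAV-RBM20 library 2 fell inside the AAV-GFP range. On the log2 scale it differed by 0.29 ± 0.15 (SE), at an unadjusted p of 0.0854 in edgeR. Tgfbr2 was higher with AAV-RBM20 in 3 of 3 same-numbered pairs, and the replicate block gave 0.30 ± 0.09 (SE) with an adjusted p of 0.169 (edgeR). Without both libraries numbered 3 it differed by 0.37 ± 0.08 (SE) on that scale, at an adjusted p of 0.0309 in edgeR. The adjusted p of Tgfbr2 over 19 alternatives ranged from 0.0309 to 0.999.

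The type I receptors, which carry the signal to the SMADs, leaned slightly downward without passing any test. Acvr1b (chr15:101174067-101213684, plus strand) stood at 60.4, 52.0 and 83.2 CPM with AAV-GFP and at 57.5, 56.0 and 63.9 CPM with AAV-RBM20. Tgfbr1 (chr4:47353222-47414931, plus strand) stood at 47.0, 41.1 and 61.1 CPM with AAV-GFP and at 39.6, 41.2 and 46.5 CPM with AAV-RBM20. For both, the AAV-GFP library numbered 3 was the highest of the 6, and the groups overlapped. The log2 fold changes were -0.14 ± 0.18 (SE) for Acvr1b and -0.23 ± 0.17 (SE) for Tgfbr1. Without the AAV-GFP library numbered 3 Acvr1b turned to 0.07 and Acvr2b to -0.07, so neither receptor had a settled direction.

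**Figure D3:**
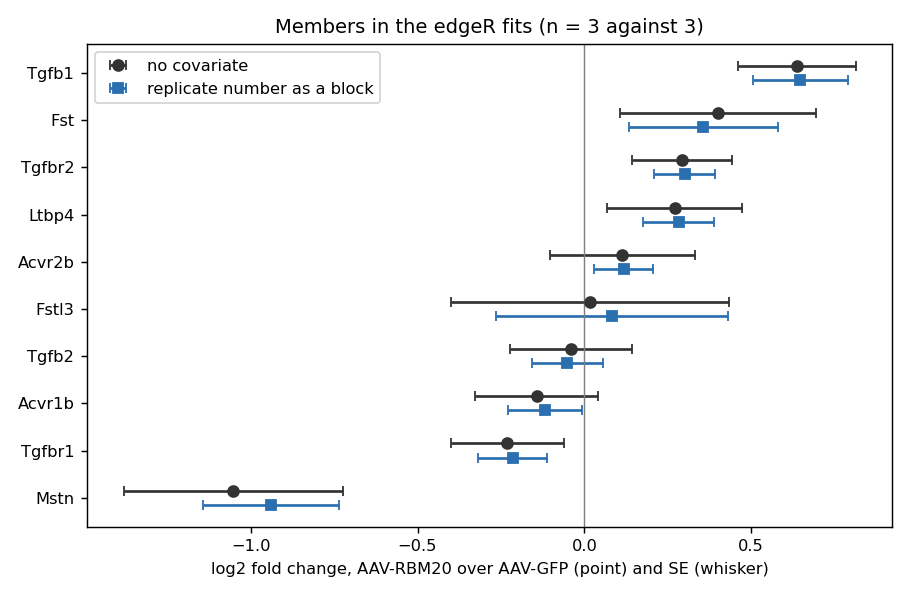
Log2 fold change of each member, AAV-RBM20 over AAV-GFP (horizontal axis), with its SE as a whisker, from the edgeR fit without covariates (circles) and with the replicate number as a block (squares). Mstn at -1.05 and Tgfb1 at 0.64 are the outermost values, and the block shortens most whiskers.

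With the replicate block, 4 of 10 members had an unadjusted p under 0.05 (Mstn lower, and Tgfb1, Tgfbr2 and Ltbp4 higher), against 18.8% of all genes. No member had an adjusted p under 0.05 in that edgeR fit, against 0.145% of all genes. Without both libraries numbered 3, an edgeR fit of 2 against 2, the members with an adjusted p under 0.05 were Mstn, Tgfb1 and Tgfbr2, or 3 of 10 against 4% of all genes.

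**Figure D4:**
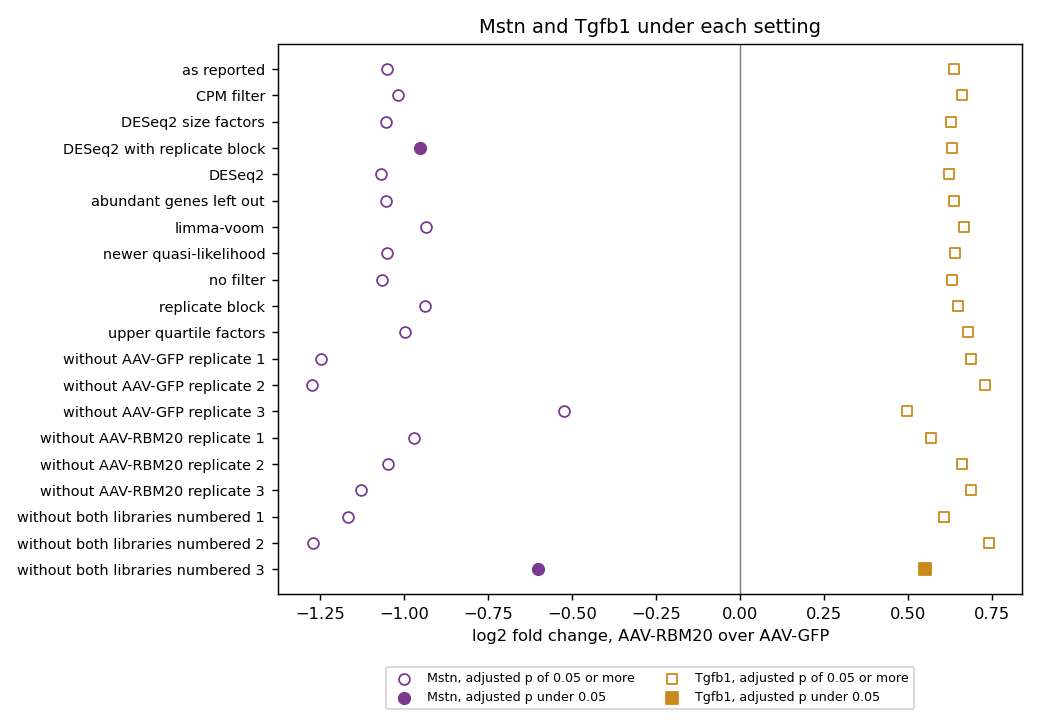
Log2 fold change of Mstn (circles) and Tgfb1 (squares), AAV-RBM20 over AAV-GFP (horizontal axis), under each processing setting (vertical axis), filled where the adjusted p was under 0.05. Mstn spans -1.28 to -0.52 and Tgfb1 spans 0.50 to 0.74, and neither crosses 0.

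Levels per kilobase of exon order the members within a group. With AAV-GFP the mean levels were 14.8 ± 3.64 CPM per kilobase (SD, n = 3) for Acvr1b, 14.1 ± 3.07 for Ltbp4 and 13.9 ± 7.38 for Mstn, and these 3 overlapped. Tgfbr1 at 7.61 ± 1.57, Acvr2b at 6.46 ± 1.46, Tgfb2 at 4.22 ± 0.588 and Tgfbr2 at 4.11 ± 0.631 CPM per kilobase followed, each overlapping its neighbour. Mstn at its lowest, 9.30 CPM per kilobase, touched the Tgfbr1 range, which reached 9.36. Below these Tgfb1 at 1.06 ± 0.185, Fst at 0.472 ± 0.0553 and Fstl3 at 0.259 ± 0.124 CPM per kilobase each lay apart from the member above. The overlap of Mstn with Acvr1b and Ltbp4 rested on the AAV-GFP library numbered 3, at 22.4 CPM per kilobase. In the other AAV-GFP libraries Mstn lay below every Acvr1b and Ltbp4 value. So Acvr1b, a myostatin receptor, was among the most abundant members, and Mstn reached its level only in that library. The antagonists Fst and Fstl3 were the rarest members.

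With AAV-RBM20 the order was Ltbp4 at 17.0 ± 2.92 CPM per kilobase (SD, n = 3), Acvr1b at 13.4 ± 0.951, Acvr2b at 6.99 ± 1.43, Mstn at 6.68 ± 0.741, Tgfbr1 at 6.49 ± 0.550, Tgfbr2 at 5.04 ± 0.478, Tgfb2 at 4.10 ± 0.831, Tgfb1 at 1.65 ± 0.143, Fst at 0.623 ± 0.213 and Fstl3 at 0.262 ± 0.0568. Mstn here was level with Acvr2b and Tgfbr1, whose ranges overlapped its own, and was separate from Acvr1b and Ltbp4. The bottom 3 kept their order and did not overlap.

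The members also varied between libraries of 1 group. Library 3 was above the mean of libraries 1 and 2, on the log2 scale, for 5 of 10 members with AAV-GFP and 7 of 10 with AAV-RBM20, and the sign was the same in both groups for 8 of 10. For Mstn this excess was 1.22 with AAV-GFP and 0.25 with AAV-RBM20. Across the 6 libraries, Pearson's r of log2 CPM was -0.96 between Mstn and Tgfb1, -0.90 between Mstn and Ltbp4, 0.92 between Mstn and Tgfbr1 and 0.95 between Acvr1b and Tgfbr1. These 6 points share the group difference and the 2 divergent libraries, so the coefficients are given as a description.

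By the same measure over 7336 genes with a mean of at least 10 CPM, the genes most like Mstn were Ate1 (r = 0.999), Mrps15 (r = 0.999) and Rplp2 (r = 0.998), all over 6 libraries. Their own log2 fold changes were -0.20, -0.40 and -0.46, smaller than that of Mstn. The genes most like Fst were Nudt7 (r = 0.983), Tspan12 (r = 0.981) and Fam129a (r = 0.979).

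A list of 61 other genes of the pathway, all of them tested, was set beside the members. None passed the adjusted threshold in edgeR, where the smallest adjusted p was 0.617, and 8 of 61 had an unadjusted p under 0.05, 5 higher and 3 lower, against 7.9% of all genes. Log2 fold changes were positive for 39 and negative for 22, with a median of 0.13 against 0.009 over all genes. Group ranges failed to overlap for 12 of 61, near the 16.8% of all genes. With the replicate block the unadjusted count was 21 of 61, 13 higher and 8 lower, against 18.8% of all genes in that fit, with no adjusted call and a smallest adjusted p of 0.0761. Without both libraries numbered 3 7 of 61 had an adjusted p under 0.05 in edgeR, against 4% of all genes. Furin and Wfikkn2 were lower, and Fbn1, Dcn, Tgfbi, Col1a2 and Col3a1 were higher, the last 5 being named after their values were seen. With all 6 libraries the groups of each of those 5 overlapped, and Dcn was at 0.21 ± 0.33 (log2 fold change ± SE).

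Of the 5 other ligands 2 were positive and 3 negative. Inha, the inhibin alpha subunit, stood at 4.45, 3.26 and 2.96 CPM with AAV-GFP and at 6.34, 4.78 and 5.02 CPM with AAV-RBM20, without overlap, for a log2 fold change of 0.60 ± 0.22 (SE) and an unadjusted p of 0.0245 in edgeR. Inhbb and Inhba, the activin beta subunits, were at 0.56 ± 0.32 and -0.13 ± 0.35 (log2 fold change ± SE), and Tgfb3, the remaining TGF-beta, at -0.31 ± 0.18. Tgfb3 shares 420 exon bases with genes on the opposite strand.

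The 16 genes of ligand processing and latency gave 13 positive and 3 negative values, with a median log2 fold change of 0.22. Nrros, which holds latent TGF-beta on myeloid cells, stood at 3.42, 3.91 and 3.99 CPM with AAV-GFP and at 4.44, 5.65 and 6.36 CPM with AAV-RBM20 (0.54 ± 0.19, log2 fold change ± SE). Ltbp1, a relative of Ltbp4, was at 0.28 ± 0.11 and Itgb6, a subunit of an integrin that frees TGF-beta, at 0.21 ± 0.12. Furin, the protease that cleaves the myostatin and TGF-beta precursors, ran the other way at -0.33 ± 0.15. These were the 4 of 16 genes whose groups did not overlap, against 16.8% of all genes. Furin, without both libraries numbered 3, was at -0.30 ± 0.06, with an adjusted p of 0.027 in edgeR, and Fbn1, the fibrillin that anchors latent complexes, at 0.84 ± 0.12, with an adjusted p of 0.0222. With all 6 libraries Fbn1 was at 0.44 ± 0.26, and its groups overlapped.

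The 7 other receptors and co-receptors were split 4 to 3. Acvr2a, the second type II receptor for myostatin, stood at 65.9, 56.2 and 76.5 CPM with AAV-GFP and at 49.3, 47.5 and 53.9 CPM with AAV-RBM20, so the groups did not overlap. The difference was -0.40 ± 0.15 on the log2 scale (SE, unadjusted p of 0.0267 in edgeR). Its adjusted p was 0.618 in edgeR, 0.123 in edgeR with the replicate block and 0.0483 in DESeq2 with that block. Acvr2a shares 446 exon bases with Orc4 on the opposite strand. Acvrl1, Acvr1 and Bmpr2, which serve BMP signalling, were at 0.14 ± 0.13, 0.08 ± 0.12 and -0.09 ± 0.14 (log2 fold change ± SE).

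Of the 6 other antagonists and ligand-binding proteins 5 were positive and 1 negative. The exception was Wfikkn2, which encodes a secreted inhibitor of myostatin and GDF11 and had the smallest p among the 61 genes. It stood at 16.3, 16.9 and 20.0 CPM with AAV-GFP and at 11.3, 10.7 and 13.0 CPM with AAV-RBM20, lower in each library than in any of the other group. On the log2 scale it differed by -0.61 ± 0.14 (SE), at an adjusted p of 0.617 in edgeR, and with the replicate block -0.60 ± 0.10 (SE) and 0.0761. Without both libraries numbered 3 it was -0.59 ± 0.10 (SE), with an adjusted p of 0.00859 in edgeR. Thus the Mstn transcript and that of 1 of its inhibitors were lower in the same libraries, while its relative Wfikkn1 was at 0.96 ± 0.60 from under 1 CPM. Aspn and Bgn, small matrix proteoglycans, were at 0.35 ± 0.22 and 0.29 ± 0.21 (log2 fold change ± SE).

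The SMADs and their regulators were mostly on the negative side, with 9 of 11 below 0 and a median log2 fold change of -0.13. Smad3, which carries both myostatin and TGF-beta signals, stood at 141, 144 and 168 CPM with AAV-GFP and at 126, 123 and 110 CPM with AAV-RBM20, without overlap (-0.33 ± 0.13, log2 fold change ± SE, unadjusted p of 0.0359 in edgeR). Smad3 was at -0.18 ± 0.06 without both libraries numbered 3. Smad4, the partner SMAD, was at -0.20 ± 0.11, Smurf2, a ubiquitin ligase, at -0.26 ± 0.15, and Ppm1a, a SMAD phosphatase, at -0.29 ± 0.20. The 4 feedback genes, which SMAD signalling itself induces, were split 2 to 2, with Pmepa1 at -0.27 ± 0.14, Smad7 at -0.16 ± 0.14, Skil at 0.12 ± 0.14 and Bambi at 0.24 ± 0.32 (log2 fold change ± SE).

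The matrix and fibrosis genes leaned the most. Of 12 genes 11 were positive, with a median log2 fold change of 0.59 against 0.009 over all genes. Timp1, an inhibitor of matrix proteases, stood at 0.197, 0.216 and 0.418 CPM with AAV-GFP and at 0.587, 0.522 and 1.71 CPM with AAV-RBM20 (1.73 ± 0.58, log2 fold change ± SE, unadjusted p of 0.0173 in edgeR). Without the AAV-RBM20 library numbered 3 that difference was 0.99. Col1a1, a chain of type I collagen, stood at 167, 159 and 255 CPM with AAV-GFP and at 356, 203 and 412 CPM with AAV-RBM20, which overlap (0.74 ± 0.29). DESeq2 with the replicate block gave Col1a1 an adjusted p of 0.000315, in a fit where 3.28% of all genes passed. In edgeR its adjusted p was 0.095 with that block and 0.618 without it. Fn1, fibronectin, was at 0.67 ± 0.33. Fn1, without both libraries numbered 3, was at 1.13 ± 0.23 and Col1a1 at 0.79 ± 0.38 (log2 fold change ± SE), with adjusted p-values of 0.141 and 0.469 in edgeR. In that fit Col3a1, a chain of type III collagen, was at 1.11 ± 0.07, with an adjusted p of 5.19e-05 (edgeR), Col1a2 at 0.73 ± 0.13 and Tgfbi at 0.63 ± 0.11. With all 6 libraries Col3a1 was at 0.55 ± 0.32, Col1a2 at 0.52 ± 0.30 and Tgfbi at 0.18 ± 0.35, and the groups overlapped for each. For Col3a1 and Tgfbi the AAV-GFP library numbered 3, at 406 and 27.3 CPM, was above every AAV-RBM20 library. With the replicate block 6 of the 12 had an unadjusted p under 0.05, all of them higher, against 18.8% of all genes in either direction. Fibroblast and fibro-adipogenic markers summed to 121, 119 and 216 CPM in AAV-GFP libraries 1 to 3. In AAV-RBM20 libraries 1 to 3 they summed to 177, 172 and 197 CPM. That overlap rests on the AAV-GFP library numbered 3, as the other AAV-GFP sums lay below every AAV-RBM20 sum. Of these markers 8 of 9 had a higher mean CPM with AAV-RBM20, and their part in the matrix values was not tested.

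**Figure D5:**
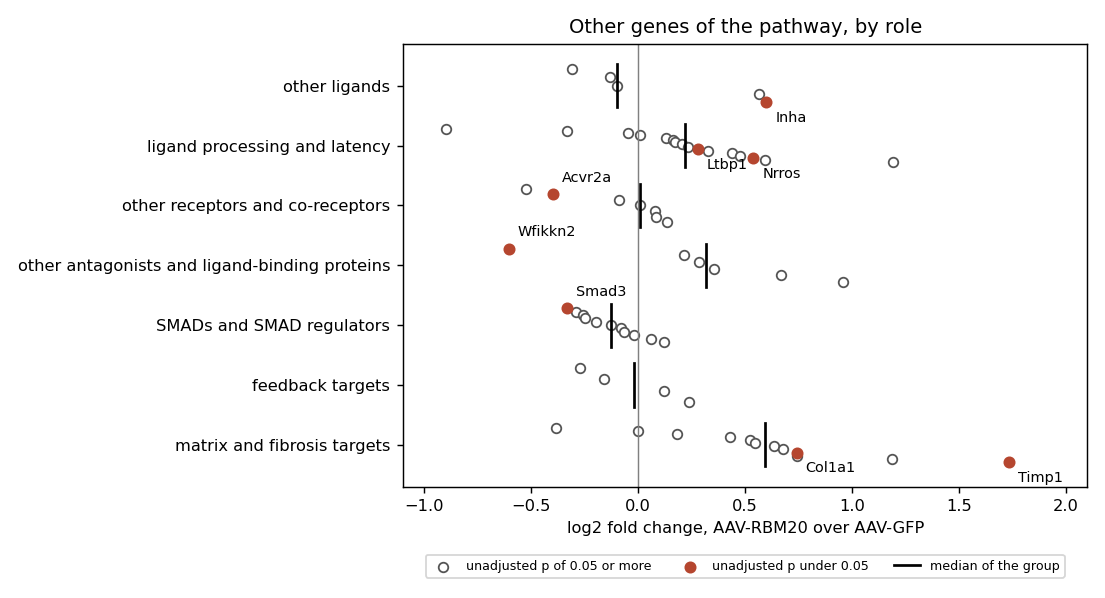
Log2 fold change, AAV-RBM20 over AAV-GFP (horizontal axis), of the 61 other pathway genes by role (rows), filled and named where the unadjusted p was under 0.05, with a line at each group's median. The matrix and fibrosis genes centre at 0.59 and the SMADs and their regulators at -0.13, and the 3 filled points below 0 are Acvr2a, Wfikkn2 and Smad3.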

How the data were processed

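Gene counts were measured in 6 TA muscle samples (AAV-GFP n = 3, AAV-RBM20 n = 3), grouped by their titles. The authors prepared stranded, rRNA-depleted libraries, aligned reads to mm10 with HISAT2 and deposited raw counts per Ensembl gene from HTSeq; the strand setting, versions and annotation release are not given in the sources used here. A deposited normalized table was not used.

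Counts were tested in edgeR 4.0.16 (filterByExpr, TMM scaling, robust quasi-likelihood, Benjamini-Hochberg, threshold 0.05) in R 4.3.3. CPM (counts scaled by library size times TMM factor) were computed. SE are those of the log2 fold change. DESeq2 1.42.0 and limma 3.58.1 (voom), other scalings, other filters, a replicate block and leaving out libraries were the alternatives. The edgeR fits with and without the block were also run on simulated counts. Those had less spread than most genes here, large changes and no divergent library, so that run does not show how the fits perform on these data. Gene positions are from a GENCODE annotation of GRCm38, and lengths per kilobase are merged exons. For log2 CPM in correlations a prior count of 2 was added. Ratios and single values had exact permutation tests.

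All members are named. From each pathway group up to 4 genes with the smallest unadjusted p are named, and the 3 genes most like Mstn and Fst; 1 gene that this rule names is not reported here. The members and lists were chosen with earlier results of these data known.

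Same-numbered libraries deviated together (correlations of 0.42, 0.20 and 0.48 over genes), so the numbers in the titles were taken to pair samples, although AAV-GFP 2 and AAV-RBM20 1 also correlated at 0.22. The count columns and descriptions number the AAV-RBM20 samples 4 to 6 where the titles have 1 to 3, so every paired value rests on the titles' numbers. The paper's list of blot lanes for this experiment gives some numbers under both vectors, marked L and R. The labels do not tie the sequenced samples to those lanes, so whether the groups share animals is not known. No 2 libraries of a group agreed within sampling noise.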

Additional observations from a re-analysis of the deposited data

How the results depend on the processing

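In edgeR 0 genes, 0 members and 0 other pathway genes passed the adjusted threshold. DESeq2 called 72 genes, edgeR without a filter 8 and edgeR with the replicate block 25. DESeq2 with the replicate block called 503 genes, 1 member (Mstn) and 4 pathway genes (Acvr2a, Wfikkn2, Col1a1 and Col1a2). Leaving out libraries gave 0 to 690 genes, 0 to 3 members and 0 to 7 pathway genes, each highest without both libraries numbered 3. At an unadjusted p under 0.05 the 1360 genes, 2 members and 8 pathway genes became 2400, 4 and 15 with DESeq2 and the replicate block and 3244, 4 and 21 with edgeR and the replicate block, and ran from 343 to 3196, 1 to 4 and 2 to 26 when libraries were left out. The cause was not tested. Mstn, Fst, Tgfb1, Ltbp4, Tgfbr1 and Tgfbr2 kept the sign of their log2 fold change in all 19 alternatives. Tgfb2 turned to 0.0037 with upper quartile factors. When libraries were left out Tgfb2 ran from -0.17 to 0.11, Fstl3 from -0.18 to 0.47, Acvr2b from -0.066 to 0.28 and Acvr1b from -0.28 to 0.070, and Fstl3 had no value under the CPM filter. The replicate block, a paired fit, changed no call of a member in edgeR. Fstl3 rests on 18 to 41 counts per library, and each group on 3 samples.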
